A study of Mus musculus with 6 samples.

Results

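The general splicing factor genes are the genes whose symbol on the array begins with Srsf (or its older form Sfrs and a digit), Hnrnp or Hnrp, Snrp, Sf3a or Sf3b, Prpf, or U2af. The rule chose 60 of the 16593 genes named on the array by name alone, without use of any measured value. Earlier results of these data were known when the members were chosen. The 60 genes fall into 9 SR proteins, 18 hnRNPs, 11 snRNP proteins, 9 SF3 subunits, 11 PRPF proteins and 2 U2AF proteins. Their transcripts were followed in whole brains of E12.5 mouse embryos after removal of REST, a transcriptional repressor of neuronal genes, from neural progenitors. The 3 knockout samples were Nestin Cre+ and also carried Rest GTi/GTi and p53 fl/fl. The 3 control samples were littermates that carried the same Rest GTi/GTi and p53 fl/fl alleles but no Cre, all on strain C57/BL6. GTi is a gene trap held in an inverted, silent orientation until Cre turns it round, so REST and p53 were lost together, and only in cells of the Nestin-positive lineage. Cells outside that lineage, such as blood in the dissected tissue, kept both genes, and the effects of REST loss, p53 loss and Cre itself cannot be told apart in this design. The labels call the samples biological replicates 1 to 3 of each group and give no litter, sex or slide.

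Pre-mRNA splicing is carried out by the spliceosome, which assembles anew on each intron from small nuclear ribonucleoprotein particles, or snRNPs. U2AF and the SF3 complexes mark the end of the intron and its branch point, SR proteins bind exons and mostly favour their inclusion, and hnRNPs coat the nascent RNA and often oppose it. PRPF proteins, named after yeast pre-RNA processing mutants, join, rearrange and activate the particles. Most of these genes are used in nearly every cell, and the developing brain depends on their balance with neuron-specific splicing regulators.

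REST binds a bipartite element called RE1, so the promoters of the 5 splicing factor genes whose groups did not overlap on the arrays are shown. Of the 56 genes tested, 3 of these were on the higher side (5.36%, beside 4.0% of all genes tested). The other 2 were on the lower side (3.57%, beside 5.07%). Each runs from 250 bases before to 50 bases after the start site of a RefSeq gene model on GRCm38.p6, in the direction of transcription. Capitals mark the only match to the letters of RE1 that was found in these 5 sequences.
Hnrnpk promoter: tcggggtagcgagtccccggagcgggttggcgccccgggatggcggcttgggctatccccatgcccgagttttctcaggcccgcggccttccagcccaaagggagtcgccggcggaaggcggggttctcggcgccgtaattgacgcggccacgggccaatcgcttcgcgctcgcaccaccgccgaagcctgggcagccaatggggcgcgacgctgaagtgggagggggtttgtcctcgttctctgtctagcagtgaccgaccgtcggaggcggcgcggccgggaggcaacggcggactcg
Snrpc promoter: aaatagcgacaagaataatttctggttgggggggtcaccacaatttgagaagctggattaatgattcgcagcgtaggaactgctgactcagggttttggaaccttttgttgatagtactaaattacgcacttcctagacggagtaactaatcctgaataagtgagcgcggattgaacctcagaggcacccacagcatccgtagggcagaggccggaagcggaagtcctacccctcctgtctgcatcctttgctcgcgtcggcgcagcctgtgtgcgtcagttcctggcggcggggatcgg
Prpf19 promoter: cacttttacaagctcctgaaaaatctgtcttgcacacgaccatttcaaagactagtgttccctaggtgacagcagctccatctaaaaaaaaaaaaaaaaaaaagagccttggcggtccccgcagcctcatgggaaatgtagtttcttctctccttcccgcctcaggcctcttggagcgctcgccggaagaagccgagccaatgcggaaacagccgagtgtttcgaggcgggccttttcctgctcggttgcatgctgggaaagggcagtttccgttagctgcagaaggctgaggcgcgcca
Srsf9 promoter: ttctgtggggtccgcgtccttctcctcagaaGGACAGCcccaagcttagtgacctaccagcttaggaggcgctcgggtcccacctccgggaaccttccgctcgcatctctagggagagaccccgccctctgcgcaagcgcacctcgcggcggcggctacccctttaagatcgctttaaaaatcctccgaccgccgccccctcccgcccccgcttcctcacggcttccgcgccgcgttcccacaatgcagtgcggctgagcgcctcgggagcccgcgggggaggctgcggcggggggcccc
Srsf3 promoter: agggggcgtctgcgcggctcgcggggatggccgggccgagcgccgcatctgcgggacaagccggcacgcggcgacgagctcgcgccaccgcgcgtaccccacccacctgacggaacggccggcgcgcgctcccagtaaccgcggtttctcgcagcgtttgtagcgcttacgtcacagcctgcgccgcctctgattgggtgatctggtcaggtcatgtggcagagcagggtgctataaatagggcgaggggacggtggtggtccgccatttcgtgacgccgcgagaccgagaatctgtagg
The Hnrnpk window lies at chr13:58402068-58402367 on the minus strand, and the other 4 are on the plus strand. Snrpc lies at chr17:27839837-27840136, Prpf19 at chr19:10894981-10895280 (the first of its 2 windows), Srsf9 at chr5:115326927-115327226 and Srsf3 at chr17:29032410-29032709. The letters searched, on both strands, were GGACAGC from the right side of RE1 and TCAGCACC from its left side, which do not overlap each other. GGACAGC occurred in 6.56% of all 32851 promoter windows and in 4 of the 72 windows of the 53 splicing factor genes with a window, which belonged to Hnrnpr, Snrpn and Srsf9. TCAGCACC occurred in 1.65% of all windows and in 0 of those 72. A match is a description of the letters and not a binding site.

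The arrays each detected 13416 to 13889 of 25696 probes (52.2% to 54.1%). In a principal component analysis, knockout replicate 2 scored 40.7 on the leading axis (32.5% of the variance), and the other 5 arrays scored -14.8 to -0.84. The only Rest probe was detected on 0 arrays, so it could not check the genotypes. Brain markers were present, with 8 of 11 neural progenitor genes and 11 of 12 young neuron genes above the detection threshold, although the probes for Pax6 and Nefl were detected on 0 arrays. Levels are log2 intensities after background correction and quantile normalisation, and values are given in the order of replicates 1, 2 and 3.

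Transcripts of the splicing factors were at nearly the same level in knockout and control brains. Of the 60 genes, 56 had a tested probe, that is a probe detected on at least 3 of the 6 arrays, and each gene is represented by its brightest one. Knockout levels were nominally higher for 29 of the 56 genes and lower for 27. The differences, given throughout as knockout minus control on the log2 scale, lay between -0.26 for Sf3b4 and 0.35 for Hnrnpk. Their median was 0.00, beside -0.01 for all 9408 genes tested, and their median size without regard to sign was 0.087, beside 0.113. Because whole brains were measured, fewer cells of a type and less RNA per cell cannot be told apart. Limma with Benjamini-Hochberg adjustment over 13755 probes called 0 of the 56 genes, as it did over all genes (0.0%), with adjusted p-values between 0.999 and 1.00. At an unadjusted p under 0.05 there was 1 gene on the higher side, Hnrnpk, which is 1.79% of the 56 beside 1.72% of all genes. On the lower side there were 0, beside 2.44% of all genes. The higher count was 0 without knockout replicate 1 or control replicate 3 and 2 without knockout replicate 2, and the lower count was 2, 1 and 1 in the same 3 fits.

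The intervals give, for each gene separately, the differences that its brightest probe left possible with 3 arrays in each group. The 95% interval of the difference lay within 1.5-fold in either direction for 43 of the 56 genes (76.8%), beside 58.6% of all genes tested. For some of those 43 genes the interval of a dimmer probe left this range, which is 0.58 either way. Such intervals reached 0.83 for Prpf38a, 0.68 for Hnrnph1 and -1.13 for Prpf40b. Of the other 13 genes, 8 had a mean level under 9. Among genes at a level of 9 or above the count was 42 of 47 splicing factors (89.4%), beside 78.6% of 6141 genes. The measured difference itself was under 1.2-fold for 54 of the 56 genes, or 96.4%, beside 80.8% of all genes, and for 51 of the 56 without knockout replicate 2. The median level was 12.77 for the splicing factors and 10.13 for all genes tested. The shares over all 56 genes and the median sizes given earlier were not matched for level, and the cut at 9 did not match levels above it. Hnrnpab, Hnrnpc, Hnrnpm, Srsf1 and Srsf2 had mean levels over 15 on a scale that ended at 16.13, and their differences lay between -0.10 and 0.01. Whether the top of the scale narrowed those differences was not tested. Hnrnpd, Prpf4b, Snrpb2 and Snrpe were detected on 0 arrays and were not tested.

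**Figure D1:**
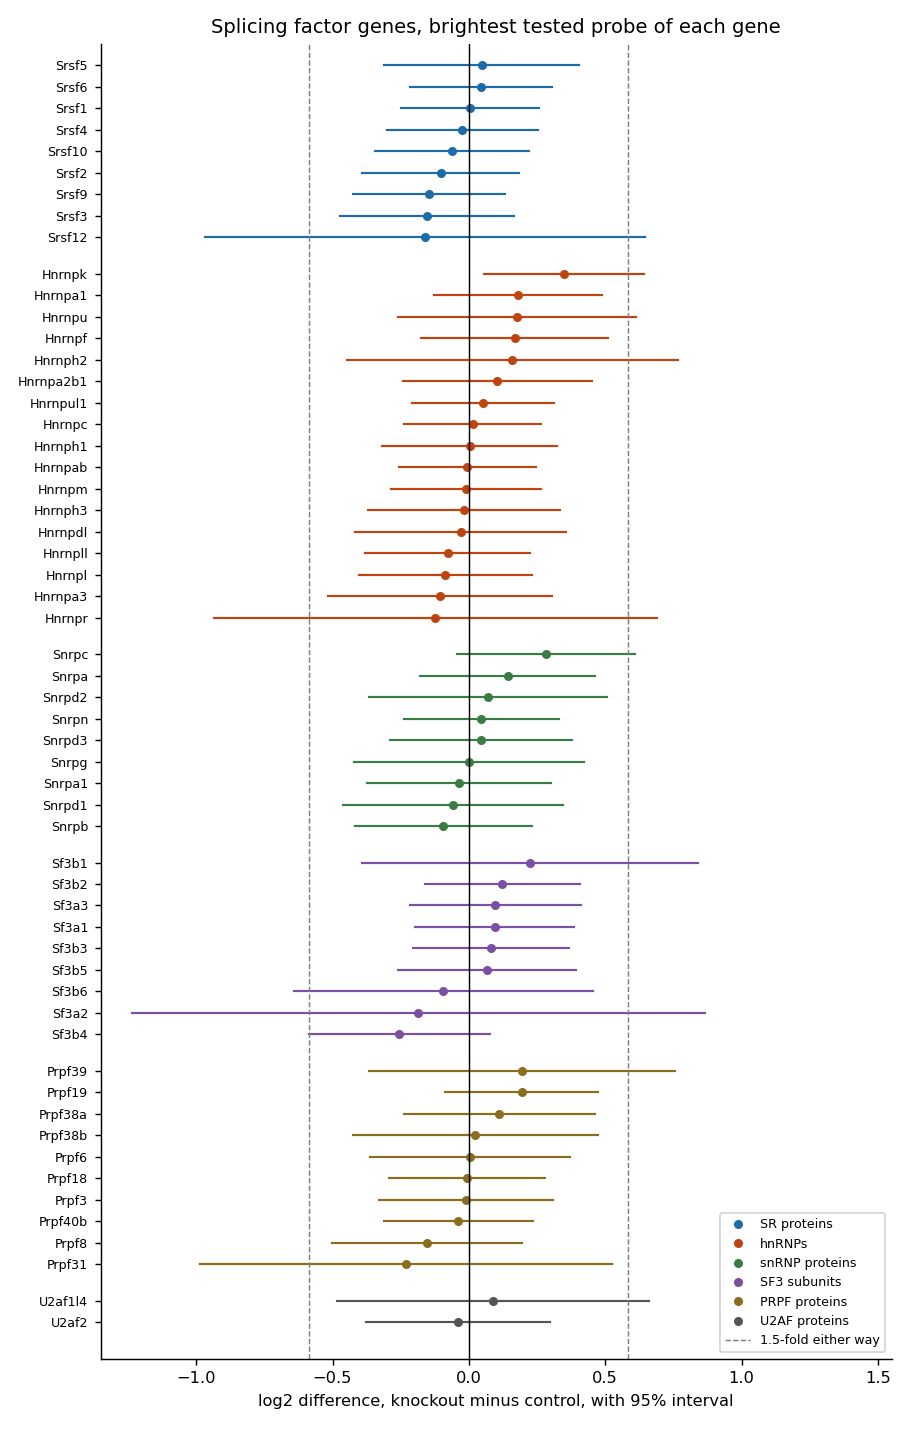
Log2 difference, knockout minus control, with its 95% interval from limma (horizontal axis) for the 56 splicing factor genes tested, grouped and coloured by family. Dashed lines mark 1.5-fold in either direction. Only the interval of Hnrnpk, 0.06 to 0.64, leaves out 0.

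Among the 9 SR proteins the median difference was -0.06, with 3 genes nominally higher and 6 lower. Srsf1, which promotes use of nearby splice sites, stood at 15.44, 15.38 and 15.44 in knockout brains, against 15.39, 15.43 and 15.43 in control brains. Those values overlapped fully, and the difference was 0.00 with a standard error (SE) of 0.11. Srsf3, the smallest SR protein, had levels of 12.14, 11.82 and 12.14 in knockout brains, against 12.15, 12.16 and 12.25 in control brains. All 3 knockout values lay below the controls, but knockout replicates 1 and 3 did so by about 0.01 and only replicate 2 stood clearly lower. Its difference was -0.15 (SE 0.13), and -0.05 without knockout replicate 2. Srsf9, a further SR protein, was at 13.97, 14.05 and 14.09 in knockout brains and at 14.12, 14.30 and 14.13 in control brains. The knockout arrays were again all lower without a gap wider than the spread of the replicates, with a difference of -0.15 (SE 0.12). Srsf3 and Srsf9 were the 2 genes of the 56 with no overlap on the lower side, or 3.57%, beside 5.07% of all genes tested.

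Srsf2, which binds enhancer elements in exons, measured 14.96, 15.20 and 15.08 in knockout brains and 15.25, 15.12 and 15.18 in control brains. These ranges overlapped, at a difference of -0.10 (SE 0.12). Srsf5 had levels of 13.08, 13.52 and 13.49 in knockout brains, against a narrow 13.29, 13.33 and 13.31 in control brains. Knockout replicate 1 was the lowest of the 6 and the other 2 knockout arrays were the highest, so the mean difference of 0.05 (SE 0.15) hid a wider knockout spread. The remaining SR genes Srsf4, Srsf6, Srsf10 and Srsf12 differed by -0.16 to 0.04. Srsf7, listed for naming by role, had no probe of that name and was not analysed here.

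The 17 hnRNPs tested had a median difference of 0.00, with 9 nominally higher and 8 lower. Hnrnpk, a protein that binds runs of cytosine in RNA and DNA, was at 12.83, 12.82 and 12.89 in knockout brains and at 12.63, 12.34 and 12.52 in control brains. All 3 knockout arrays lay above all 3 controls, with means of 12.847 ± 0.034 and 12.497 ± 0.144 (SD, n = 3 each). The difference was 0.35 (SE 0.12), or 1.27-fold, with an unadjusted limma p of 0.0257 and an adjusted p of 0.999. A further tested Hnrnpk probe differed by 0.10. Leaving out each array in turn moved the difference between 0.27 and 0.41.

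Hnrnpa1, which often represses exon inclusion, had levels of 14.004, 14.111 and 14.25 in knockout brains, against 14.08, 13.89 and 13.85 in control brains. Knockout replicates 2 and 3 were above every control and replicate 1 was not, at a difference of 0.18 (SE 0.13). Its close relative Hnrnpa2b1 measured 13.57, 13.69 and 13.86 in knockout brains and 13.80, 13.55 and 13.46 in control brains. The groups overlapped, and the difference was 0.10 (SE 0.15). Hnrnpc, which binds uridine tracts of nascent transcripts, held 15.91, 15.95 and 15.91 in knockout brains, against 15.93, 15.92 and 15.88 in control brains. Its difference of 0.01 (SE 0.11) was within the spread of either group.

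Hnrnph1 and Hnrnpf encode related proteins that bind guanine runs near splice sites. Hnrnph1 was at 14.61, 14.90 and 14.53 in knockout brains and 14.66, 14.67 and 14.70 in control brains. Replicate 2 was the highest knockout array and the other 2 lay below every control, so the difference of 0.00 (SE 0.14) became -0.11 without replicate 2. Hnrnpf measured 10.807, 10.536 and 10.745 in knockout brains and 10.714, 10.499 and 10.372 in control brains, an overlap with a difference of 0.17 (SE 0.14). Hnrnpl, a binder of CA-rich RNA, had 14.63, 14.91 and 14.64 in knockout brains, against 14.79, 14.91 and 14.73 in control brains. Hnrnpu, a large chromatin-bound hnRNP, had 10.39, 10.17 and 9.90 in knockout brains, against 9.92, 9.77 and 10.24 in control brains. Both pairs of groups overlapped, at -0.09 (SE 0.13) for Hnrnpl and 0.18 (SE 0.18) for Hnrnpu. The other 9 hnRNPs tested differed by -0.12 to 0.16.

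The 9 snRNP proteins tested had a median difference of 0.04, which was -0.06 without knockout replicate 3. Snrpc encodes a U1 snRNP subunit that steadies pairing with the start of the intron. It measured 10.97, 10.63 and 10.78 in knockout brains, against 10.57, 10.39 and 10.58 in control brains. Each knockout value was above each control, the nearest pair being 0.05 apart, and the difference was 0.28 (SE 0.14), or 1.22-fold. Limma gave it an unadjusted p of 0.0799 and an adjusted p of 0.999. Snrpa, which encodes a further U1 subunit, had 13.32, 13.09 and 13.24 in knockout brains, against 13.14, 13.18 and 12.90 in control brains. The groups overlapped, with a difference of 0.14 (SE 0.14). Snrpa1, which encodes a U2 subunit, had 12.67, 12.82 and 13.09 in knockout brains and 12.95, 12.89 and 12.86 in control brains. It differed by -0.04 (SE 0.14).

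Sm proteins form the ring around the RNA of each snRNP. Snrpd1 was at 14.32, 13.97 and 14.57 in knockout brains, against 14.32, 14.31 and 14.40 in control brains. Snrpg was at 13.83, 13.55 and 14.20 in knockout brains, against 13.84, 13.85 and 13.89 in control brains. In both genes knockout replicate 2 was the lowest and replicate 3 the highest of all 6 arrays, while the controls stayed close together. The differences were -0.06 (SE 0.17) for Snrpd1 and -0.00 (SE 0.18) for Snrpg. The SD was 0.30 and 0.32 in knockout brains, against 0.05 and 0.03 in control brains. Snrpd2 had the same order of knockout arrays, at 14.18, 13.91 and 14.45, against 14.29, 14.16 and 13.88 in control brains, and a difference of 0.07 (SE 0.18).

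That order was looked for in other genes after these values had been seen. Knockout replicate 2 was the lowest and replicate 3 the highest knockout array in 3 of 6 Sm genes, which are the 3 that prompted the search, and in 6 of 7 Lsm genes, Lsm2 to Lsm8, which encode the related ring of U6 snRNP. The same order was found in 6 of the 56 splicing factors (10.7%) and in 22.6% of all genes tested. Snrpb, Snrpd3 and Snrpn did not share it, nor did Lsm10 and Lsm11. Snrpb had 13.80, 14.19 and 13.92 in knockout brains, against 14.10, 14.05 and 14.04 in control brains, a difference of -0.09 (SE 0.14). Snrpd3 differed by 0.04. Snrpn, an imprinted gene that encodes the neuronal Sm protein closest to Snrpb, measured 14.94, 15.15 and 14.94 in knockout brains and 14.99, 14.90 and 14.99 in control brains. Its groups overlapped at a difference of 0.05 (SE 0.12), and probe specificity between Snrpn and Snrpb was not tested.

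The SF3 complexes anchor U2 snRNP at the branch point, and their 9 subunits had a median difference of 0.08, with 6 nominally higher and 3 lower. Sf3b4, an SF3B subunit that contacts RNA upstream of the branch point, had the lowest difference of all the splicing factors. It was at 9.358, 9.004 and 8.989 in knockout brains and at 9.350, 9.370 and 9.399 in control brains. Knockout replicate 1 lay among the controls and the other 2 lay below them, at a difference of -0.26 (SE 0.14), or 1.19-fold lower, with an adjusted limma p of 0.999. A second, dimmer Sf3b4 probe differed by -0.06 (SE 0.20), with overlapping groups. Sf3b2, another SF3B subunit, measured 14.16, 14.42 and 14.30 in knockout brains, against 14.18, 14.17 and 14.16 in control brains. Its controls spanned only 0.02 and the difference was 0.12 (SE 0.12). Sf3a1 had 13.33, 13.34 and 13.39 in knockout brains and 13.10, 13.31 and 13.37 in control brains, a difference of 0.09 (SE 0.12).

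Sf3b1, the scaffold of SF3B, was read by a dim probe detected on 3 knockout arrays and 1 control array. Its values were 6.92, 6.68 and 6.83 in knockout brains, against 6.24, 7.19 and 6.32 in control brains, with a difference of 0.22 and an interval of -0.39 to 0.84. The dim probe of Sf3a2 had the widest interval of the 56 genes, -1.23 to 0.86. U2af2, the U2AF subunit that binds the polypyrimidine tract, had 11.50, 11.62 and 11.24 in knockout brains and 11.38, 11.50 and 11.59 in control brains. The groups overlapped at a difference of -0.04 (SE 0.14). U2af1l4, related to the small U2AF subunit, differed by 0.09 (SE 0.24), and U2af1 had no probe of that name and was not analysed here.

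The 10 PRPF proteins tested had a median difference of -0.00, with 5 genes on each side. Prpf19, the ubiquitin ligase at the centre of the complex named after it, was at 13.998, 14.072 and 14.04 in knockout brains, against 13.91, 13.91 and 13.70 in control brains. All knockout arrays lay above the controls, with a difference of 0.19 (SE 0.12), or 1.14-fold, and its other 2 tested probes gave 0.09 and 0.10. Hnrnpk, Snrpc and Prpf19 were the 3 genes of the 56 with no overlap on the higher side, or 5.36%, beside 4.0% of all genes tested. Prpf8, the large protein at the catalytic core, measured 12.58, 12.77 and 12.49 in knockout brains and 12.59, 12.96 and 12.75 in control brains. The ranges overlapped at a difference of -0.15 (SE 0.15), while a second, dimmer probe gave 0.24 (SE 0.24).

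Prpf38a, needed for spliceosome activation, had 13.077, 12.640 and 12.996 in knockout brains, against 12.778, 12.819 and 12.780 in control brains. Knockout replicates 1 and 3 were above the controls and replicate 2 was below them, with a difference of 0.11 (SE 0.15). Prpf31, which joins U4/U6 to U5 snRNP, was near the detection limit at 6.113, 7.467 and 6.652 in knockout brains, against 6.984, 6.937 and 6.999 in control brains. Its difference of -0.23 (SE 0.32) turned to 0.09 without knockout replicate 1. The remaining PRPF genes differed by -0.04 to 0.20.

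**Figure D2:**
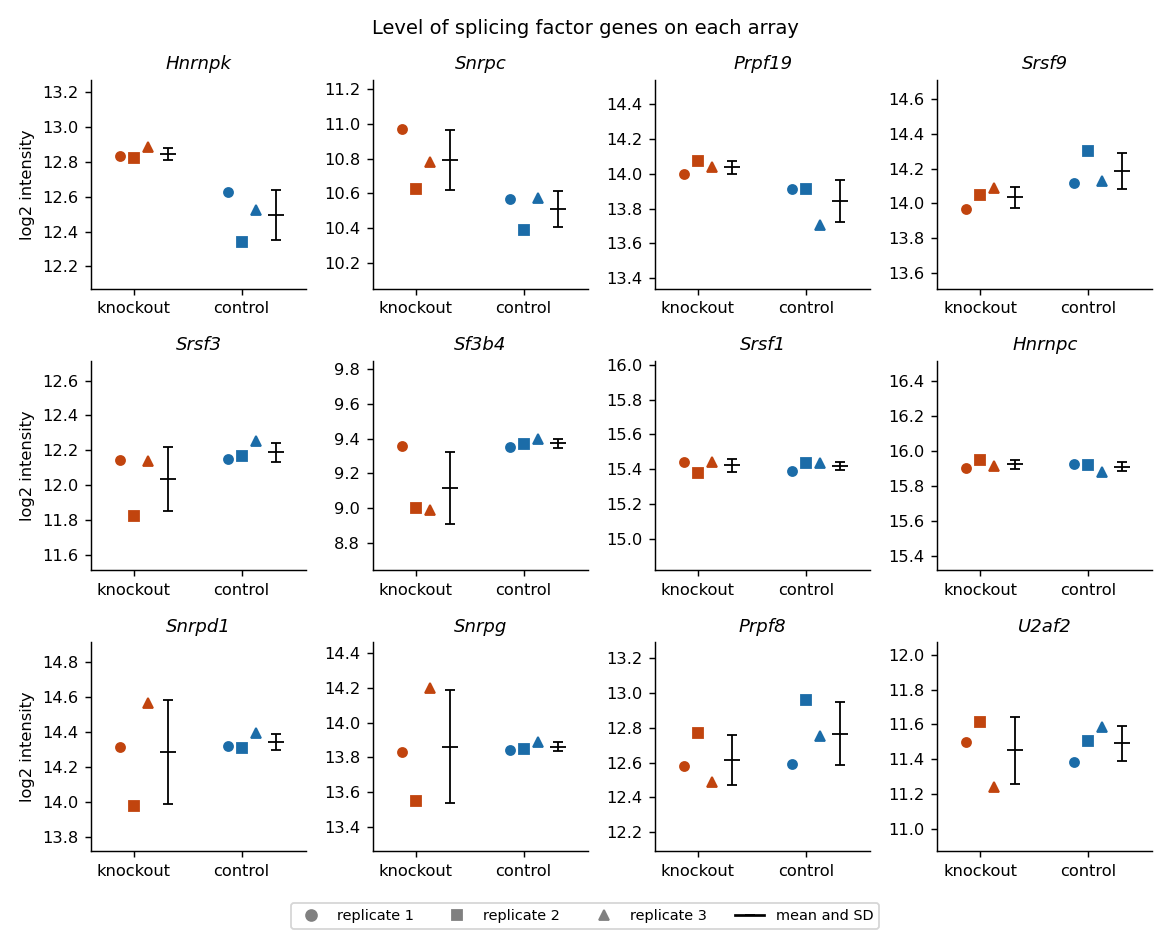
Log2 intensity (vertical axis, 1.2 log2 units in every panel) of 12 splicing factor genes on the 3 knockout and 3 control arrays, with the mean and SD of each group at its right. Hnrnpk, Snrpc and Prpf19 were higher and Srsf9 and Srsf3 lower on every knockout array, and Snrpd1 and Snrpg were spread more widely among knockout arrays.

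Several genes were read by more than 1 probe, which gave a second measurement from the same RNA. Of 24 genes with several tested probes, the probes of 11 were all higher, those of 7 all lower and those of 6 divided in sign. The span between the probes of a gene had a median of 0.17 and reached 0.47 in Prpf3. The divided genes were Hnrnpul1, Prpf3, Prpf8, Snrpb, Snrpd1 and Srsf10. For Snrpb and Snrpd1 the further probes gave 0.08 and 0.04.

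At the level of probes, 3 of the 95 tested splicing factor probes (3.16%) had an unadjusted p under 0.05 on the higher side, beside 2.25% of all probes. On the lower side there were 0, beside 2.34%. They were the Hnrnpk probe above, probe ILMN_2684987 of Hnrnph1 and probe ILMN_2630704 of Prpf38a, the last 2 not the brightest of their genes. The Hnrnph1 probe was at 11.47, 11.68 and 11.55 in knockout brains, against 11.38, 11.06 and 11.19 in control brains. The Prpf38a probe was at 10.22, 9.94 and 9.94 in knockout brains, against 9.40, 9.79 and 9.51 in control brains. Neither pair of groups overlapped, and the differences were 0.36 (SE 0.14) and 0.47 (SE 0.15), while the brightest probes of these genes gave 0.00 and 0.11. The 5 Hnrnph1 probes ranged between 0.00 and 0.36 and the 4 Prpf38a probes between 0.07 and 0.47. On the other side, the 3 probes of Prpf40b, related to a yeast U1 snRNP protein, gave -0.04, -0.38 and -0.39. Which transcripts each probe reads was not tested.

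**Figure D3:**
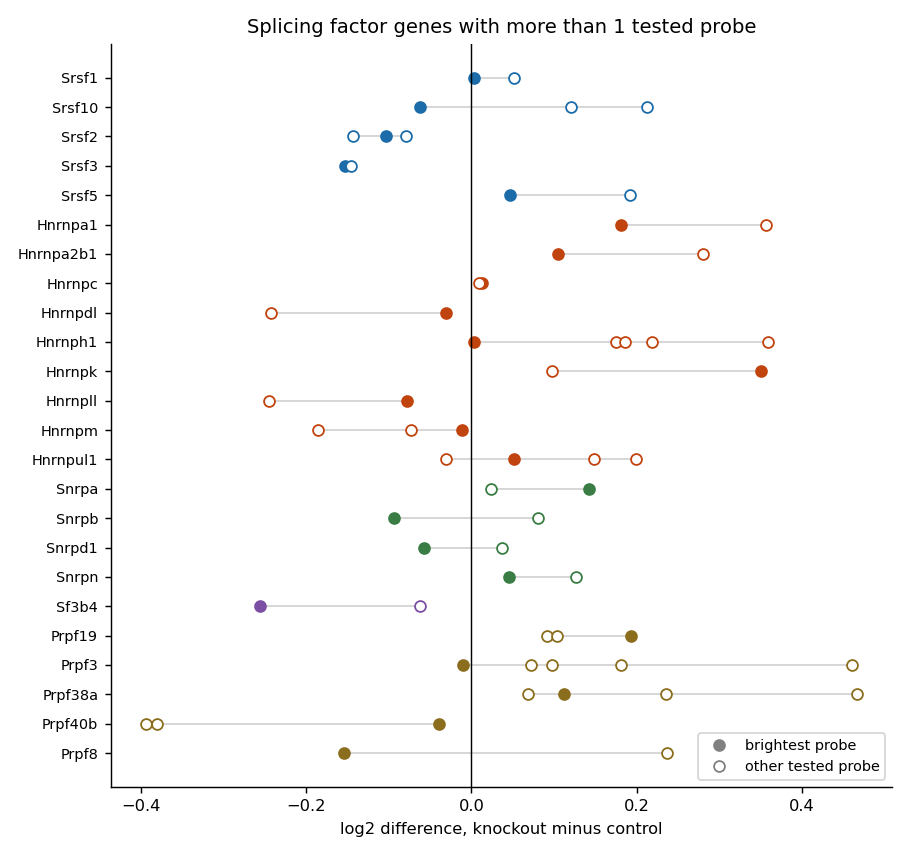
Log2 difference, knockout minus control (horizontal axis), of every tested probe of the 24 splicing factor genes with more than 1. Filled points are the brightest probe of a gene and open points its other probes. The points of Hnrnph1 and Prpf38a run up to 0.36 and 0.47, and those of Prpf3 cross 0.

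Most splicing factors had a wider spread among knockout than among control brains, which was described and not tested. The SD over the 3 arrays was larger in knockout than in control brains for 41 of 56 genes (73.2%), beside 64.6% of all genes tested. Its median over the splicing factors was 0.15 in knockout and 0.10 in control brains, and 0.11 between knockout replicates 1 and 3 alone. For all genes tested the medians were 0.21 and 0.15, and 0.15 between those 2 knockout arrays. SDs of 2 arrays tend to come out lower than SDs of 3, so the values for 2 arrays cannot be set against the others. For splicing factors, the array farthest from the gene mean was knockout replicate 1 in 28.6%, replicate 2 in 21.4% and replicate 3 in 23.2%. All genes tested gave 17.4%, 28.0% and 18.3% in the same order. Several lists of cell type markers set knockout replicate 2 apart, and their part in the spread was not tested. The 10 mesenchyme and meninges markers tested were at a median of -2.68 on that array relative to the control mean, and the 7 choroid plexus markers at -1.65. Erythroid markers were at -0.75 there and endothelium and pericyte markers at -0.70. Young neuron markers were at 0.40, neural progenitor markers at 0.04 and microglia and macrophage markers at -0.04. On the other arrays the mesenchyme median ranged between -0.60 and 0.36. Over the 10 mesenchyme markers the summed linear intensity was 2187 to 12523 in knockout brains and 9047 to 14595 in control brains, and 0 of the 10 were undetected throughout. The median of the splicing factors was -0.01, 0.05 and 0.01 on the 3 knockout arrays and -0.00, 0.01 and -0.01 on the 3 control arrays. Their median difference was 0.01 without knockout replicate 2.

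**Figure D4:**
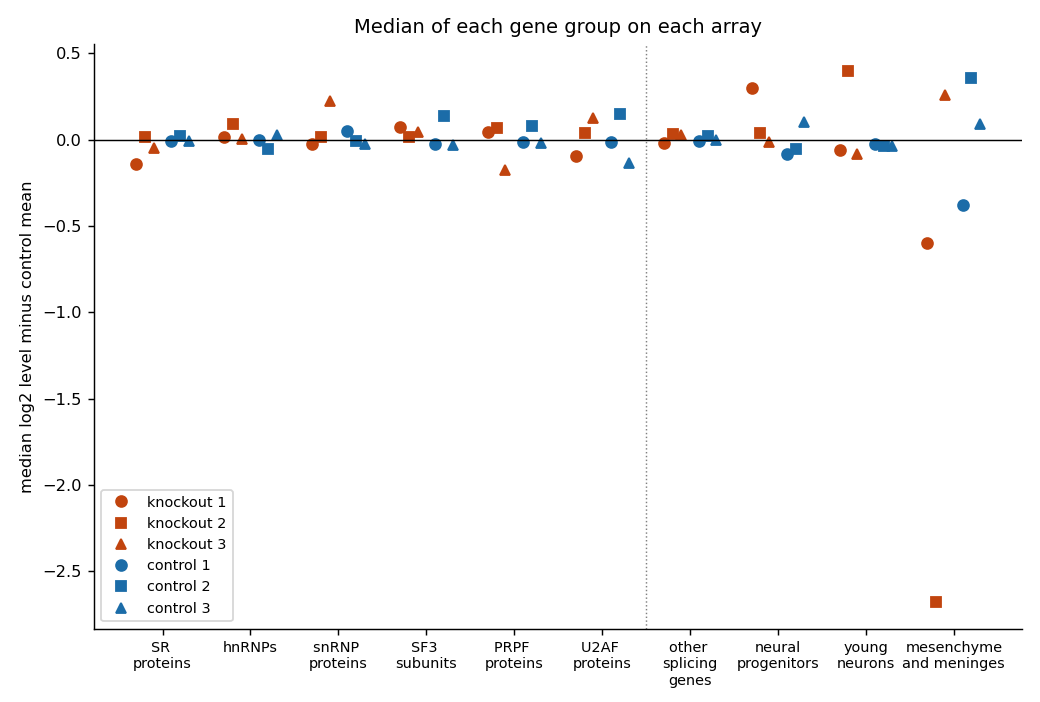
Median log2 level of each gene group on each array, minus the control mean of each gene (vertical axis), for the 6 splicing factor families, other splicing genes and 3 marker lists. The splicing factor medians all lie between -0.17 and 0.23, while mesenchyme markers reach -2.68 on the array of knockout replicate 2.

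Splicing genes outside the naming rule were close to the same picture. Of 119 such genes on the array 105 were tested, with 56 nominally higher, 49 lower, a median difference of 0.01 and 0 called by limma. At an unadjusted p under 0.05 there were 2 on the higher side (1.90%), beside 1.72% of all genes, and 0 on the lower side, beside 2.44%. Snw1, a component of the catalytic spliceosome that also works in transcription, was at 7.77, 8.07 and 8.01 in knockout brains, against 7.28, 6.36 and 7.16 in control brains. All knockout arrays were above the controls, at a difference of 1.02 (SE 0.25) and an adjusted limma p of 0.910, but the probe was dim and was detected on 5 of the 6 arrays. Khdrbs1, the RNA-binding protein Sam68, differed by 0.36 (SE 0.14) with an adjusted limma p of 0.999, and its other tested probe by 0.10 (SE 0.18). The medians of the 7 lists, in order, were -0.02 for other snRNP proteins, -0.00 for the catalytic step, 0.03 for branch point and splice site recognition, -0.01 for SR-related proteins and SR kinases, 0.02 for hnRNP-like proteins, 0.05 for the exon junction complex and 0.03 for snRNP assembly.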

How the data were processed

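RNA from 6 E12.5 brains was hybridised to Illumina mouse Ref8 v2 BeadArrays, 1 array for each sample. A legend of the study gives another number of embryos for each genotype, and the 3 samples labelled in each group were used here. The arrays were read by the authors in BeadStudio 3.0, who quantile-normalised the intensities with lumi, as their methods and the near-equal sorted values of the 6 arrays show. The deposited table holds a linear intensity and the authors' detection p-value for each probe and array. Whether background was subtracted is not given in the sources used here. After 2 empty ID cells the deposited IDs ran 2 lines out of step with their values, over 84.9% of the table, and the empty cells were dropped before IDs and values were paired in order. Intensities were then corrected, quantile-normalised and log2-transformed by neqc of limma 3.58.1 (R 4.3.3, offset 16). Probes with a detection p-value under 0.05 on at least 3 of 6 arrays were tested with lmFit and eBayes, a two-sided moderated test, with Benjamini-Hochberg adjustment over 13755 probes. The script was tested on simulated data. Symbols came from the platform annotation, updated through gene identifiers for 12944 of 12948 named probes. Promoters came from RefSeq on GRCm38.p6. The number of arrays limits the precision, and p-values measure the spread between these samples only. Genes were named by rule: the 8 of each direction with the smallest p, and a set fixed by role. The members and all lists were chosen with earlier results of these data known. Alternatives were other background corrections, filters, variance models, the methods' t-test, probe averages, a replicate block, the IDs as deposited, and leaving out each array.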

Additional observations from a re-analysis of the deposited data

How the results depend on the processing

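The count of called splicing factors was 0 under all 15 alternatives, and the lowest adjusted p of a named gene was 0.717. The 28 named genes gave 415 alternative differences, of which 387 kept their sign. With the mean over a gene's probes, the count at an unadjusted p under 0.05 was 0 on the higher side, the median difference 0.035, the count of other splicing genes 1, and Prpf8 turned to 0.042. The methods' t-test gave 5 other splicing genes at that threshold. Same-numbered knockout and control arrays did not deviate together (r = -0.01, -0.08 and -0.15, over probes). With so few arrays and no litter or slide in the labels, these values cannot decide whether the numbers pair the samples. With the replicate as a block, the count on the higher side was 0 and that of other splicing genes 1.

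With probe IDs as deposited the differences were -0.0063 for Hnrnpa2b1, -0.031 for Hnrnpc, -0.086 for Hnrnph1, -0.078 for Hnrnpk, -0.030 for Hnrnpu, 0.068 for Prpf31, -0.26 for Sf3b2, 0.066 for Sf3b4, -0.094 for Snrpa, 0.037 for Snrpb, 0.043 for Snrpd1 and -0.035 for Srsf5. These reversals follow from values moving to neighbouring IDs, and the U2AF median had no value there. The cause of the other shifts was not tested.

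Leaving out each array in turn gave 0 to 2 splicing factors at that threshold on the higher side and 0 to 2 on the lower, 1 to 5 other splicing genes, a median difference of 0.0050 to 0.033 and an snRNP median of -0.064 to 0.099. In 9 named genes the sign turned: Hnrnpc ranged between -0.0015 and 0.022, Hnrnph1 between -0.11 and 0.078, Prpf31 between -0.59 and 0.086, Snrpa1 between -0.15 and 0.059, Snrpd1 between -0.20 and 0.099, Snrpn between -0.024 and 0.082, Srsf1 between -0.011 and 0.025, Srsf5 between -0.031 and 0.19 and U2af2 between -0.12 and 0.065. Of the 19 that kept their sign, the difference of 16 moved by over 1.5 times, among them Hnrnpa2b1 (0.027 to 0.20), Hnrnpl (-0.18 to -0.035), Hnrnpu (0.059 to 0.31) and Sf3b1 (0.051 to 0.53), but not those of Hnrnpk, Snrpc and Sf3b4. Dim probes near the detection threshold limit what can be seen for Sf3a2, Sf3b1, Prpf31, Hnrnpr and Snw1.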
